A study of Homo sapiens with 14 samples.

Results

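Non-specific IgG is used in chromatin immunoprecipitation and sequencing (ChIP-seq) as a negative antibody control, and the regions it recovers are described here for heat-treated cells. All peaks of 2 deposited lists were taken, with no filter on fold or p: 4377 peaks of IgG in cycling cells and 41184 peaks of IgG in mitotic cells, 45561 of the 117699 peaks in the 12 lists of the series. The cells were K562, a human erythroleukemia line, grown at 37 °C and exposed to 42 °C for 30 min. Both groups carried the same heat treatment and the same IgG (sc-2027, Santa Cruz). They differed in that the cycling cells were unsynchronised and the mitotic cells were arrested in mitosis, by a method that the labels do not name. Each group is 1 library from 10 pooled immunoprecipitations, so there is no replicate and no test of cell state. The series also holds IgG of non-treated cells (15758 cycling and 2373 mitotic peaks) and lists for heat shock factors HSF1 and HSF2.

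Peaks in an IgG list mark places where chromatin is recovered, or reads pile up, without a specific antigen. Open and highly transcribed chromatin, amplified DNA, repeats near centromeres and nuclear copies of mitochondrial DNA are known sources of such peaks. In mitosis the chromosomes are condensed and most transcription stops, so the background of mitotic chromatin need not be that of interphase. Each list was called against the input of the same cell state, which is sheared chromatin sequenced without immunoprecipitation. The 2 inputs of the series are both of heat-treated cells, so lists of non-treated cells had no input of their own treatment. No genome or annotation of hg19, the build of the files, was used here, so regions are given by position and no sequence is printed.

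The libraries had similar depth but not the same treatment of duplicates. Kept tags, the reads left after the cap on duplicates, numbered 14567365 in cycling and 17981369 in mitotic IgG, a ratio of 1.23, and the inputs had 34815679 and 38337720. The cycling alignment, whose name carries bwa and picard, entered peak calling with 14567366 tags and a redundant rate of 0. The mitotic alignment, under another naming, entered with 23203247 tags and a redundant rate of 0.23. The naming went with cell state among heat-treated libraries, so cell state and read processing cannot be told apart. Non-treated cycling IgG has the naming of the mitotic lists (redundant rate 0.31, 14761560 kept tags) and its values are given below where they bear on a result.

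Mitotic cells gave far more IgG peaks than cycling cells after heat. The mitotic list was 9.41 times as long, and per 1000000 kept tags it held 2290 peaks against 300.5. Its peaks covered 30.9 Mb, 1.15% of the effective genome size of 2700000000 bp used in peak calling. The cycling peaks covered 4.21 Mb, or 0.156%. The peaks took up 5.40% of kept tags in mitotic and 1.20% in cycling cells, a ratio of 4.49. Per kb of covered length the order was the other one, with 1.75 tags per 1000000 kept tags (CPM) in mitotic and 2.85 in cycling peaks. Non-treated cycling IgG lay between the lists, with 1068 peaks per 1000000 kept tags and 2.21% of kept tags in peaks.

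A typical peak was small in both states. The median width was 616 bp in cycling cells (quartiles 579 and 861) and 597 bp in mitotic cells (571 and 719). The median peak held 14 tags (0.961 CPM) in cycling and 15 tags (0.834 CPM) in mitotic cells. The medians lay next to the fewest tags that any peak had, 12 in cycling and 13 in mitotic cells. Peaks with exactly that number made up 32.2% of the cycling and 32.5% of the mitotic list. The typical peak was thus at or near the calling limit in both lists.

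Taken whole, the lists differed above the median. Among cycling peaks, 545 were over 1 kb and up to 2 kb wide, 278 over 2 and up to 5 kb, and 68 over 5 kb. The 68 widest cycling peaks, 1.55% of the list, held 30.1% of the tags in peaks. In mitotic cells 90.5% of peaks were at most 1 kb wide, against 79.6% in cycling cells, and they held 61.3% of tags in peaks against 32.1%. The 195 mitotic peaks over 5 kb, 0.473% of the list, held 15.2% of the tags. Non-treated cycling IgG resembled the mitotic list in this respect, with 92.7% of peaks at most 1 kb wide holding 63.1% of tags. The 90th percentile of CPM was 4.32 in cycling and 1.56 in mitotic cells, and the highest peak had 679 and 1161 CPM. The mitotic list was also shortened to its 4377 peaks of highest score or most tags. The median mitotic peak was then 1.81 or 2.01 times as wide as the cycling one and had 1.91 or 2.14 times its CPM. That choice sets the top mitotic peaks beside the whole cycling list, which by itself favours higher mitotic medians.

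**Figure D1:**
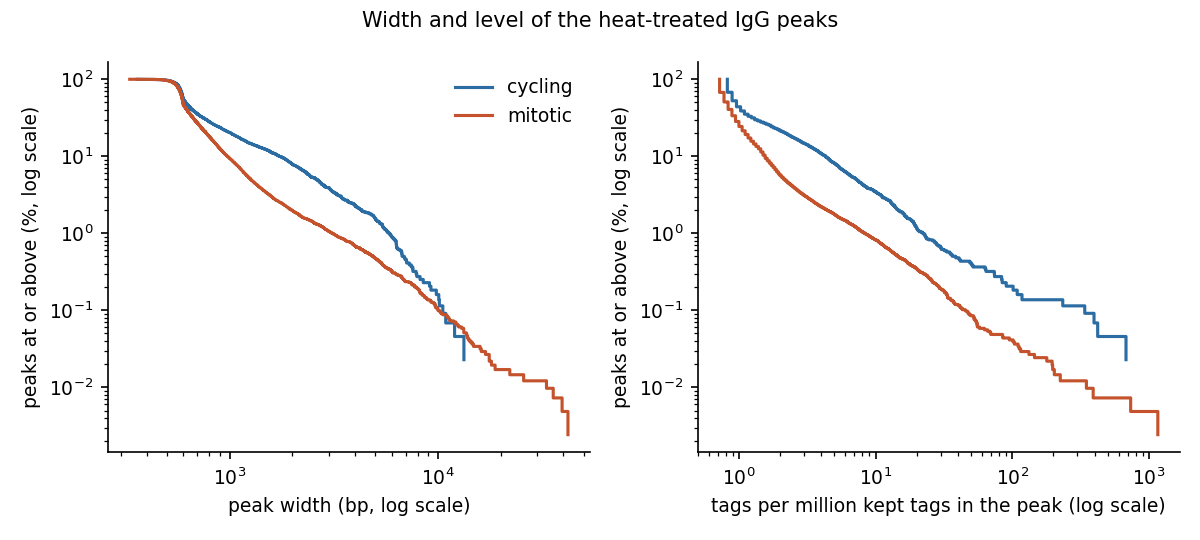
Share of heat-treated IgG peaks (percent, log scale) at or above a given width in bp (left) and a given number of tags per 1000000 kept tags (right), both on log scales, for cycling (blue) and mitotic (red) cells. The curves start together near 600 bp, the cycling curve lies higher from 1 to 5 kb, and the mitotic curve reaches the larger maximum, 42052 bp against 13323 bp.

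The deposited fold, the ChIP signal over expected input at the summit, was low in both lists. It had a median of 2.33 in cycling cells (lowest 0.93, highest 8.75) and 3.17 in mitotic cells (lowest 1.01, highest 23.6). A fold of at least 5 was reached by 18 cycling and 555 mitotic peaks, and a fold below 1 by 5 and 0 peaks. The deposited FDR was higher in the cycling list, with a median of 4.29% against 0.91%. All 41184 mitotic peaks and 2835 of the cycling peaks had an FDR of at most 5%. Fold and FDR are the authors' values within each list.

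Most background regions of 1 state had no counterpart in the other. Of the 4377 cycling peaks, 1206 overlapped a mitotic peak by at least 1 bp, 27.6% (95% Wilson interval 26.2 to 28.9). Of the 41184 mitotic peaks, 1111 overlapped a cycling peak, 2.7% (2.55 to 2.86). These intervals cover counting error only. With a reciprocal overlap of at least 50% the shares were 13.3% and 1.41%, and with summits within 250 bp they were 12.6% and 1.34%. Summits of the 1290 overlapping pairs lay a median of 356.5 bp apart, and 27.4% of pairs had summits within 100 bp. With the mitotic list shortened to the 4377 peaks with most tags, 21.0% of cycling and 18.3% of mitotic peaks overlapped.

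The overlap lay with the high and wide peaks. Cycling peaks found in mitotic cells had a median of 1.78 CPM and 880 bp, and those not found 0.892 CPM and 597 bp. Mitotic peaks found in cycling cells had a median of 3.11 CPM and 1234 bp, against 0.779 CPM and 597 bp for the rest. When the cycling list was ranked by tags and split into 5 parts of equal size, 10.8% of the lowest part (8.95 to 13.1) and 59.6% of the highest (56.3 to 62.8) had a mitotic peak. In the mitotic list the shares were 0.486% and 10.8% (10.2 to 11.5). The split by width gave the same order up to 5 kb: 19.4% of cycling peaks of at most 1 kb had a mitotic peak, 57.1% of those up to 2 kb and 64.0% of those up to 5 kb. Among peaks over 5 kb it was 58.8% of the cycling and 62.1% of the mitotic ones. A wide peak covers more bases and so meets other peaks more easily, and the part of this in the shares was not tested. The found peaks carried 50.6% of the tags in cycling peaks but 20.9% of those in mitotic peaks. The fold showed no such order, with 2.07 for found and 2.37 for other cycling peaks, and 2.88 and 3.17 in mitotic cells.

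**Figure D2:**
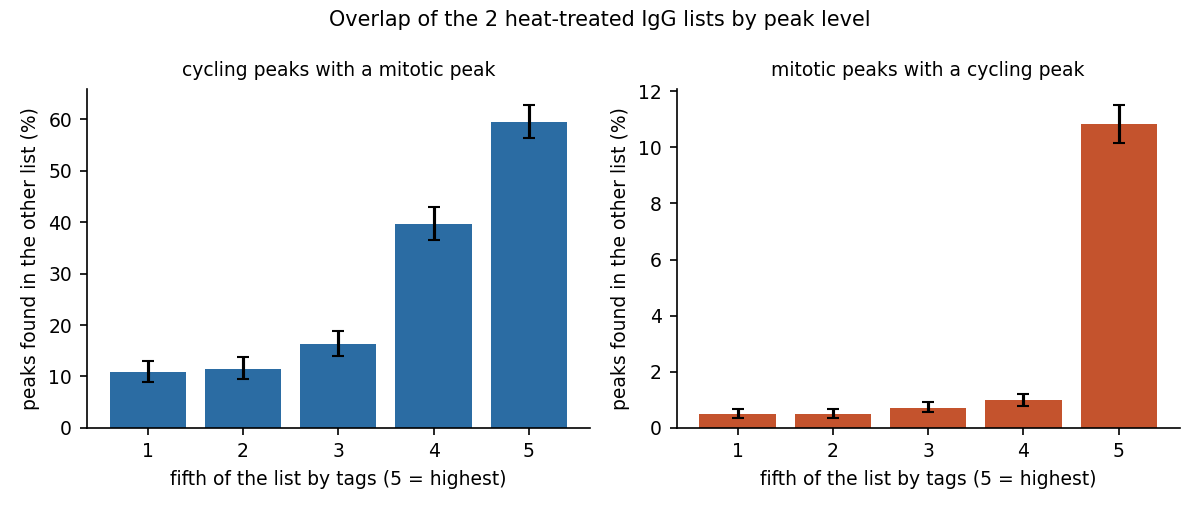
Percent of heat-treated IgG peaks that overlap a peak of the other cell state by at least 1 bp, for 5 equal parts of the list ranked by tags, with 95% Wilson intervals; the vertical axes differ. The share in the highest part is 59.6% for cycling peaks (left) and 10.8% for mitotic peaks (right).

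The 2 lists met in 1027 merged regions, of which 863 held 1 peak of each. In 85 regions a single mitotic peak spanned several cycling peaks, up to 11, and in 54 a single cycling peak spanned several mitotic ones. The level was higher in mitotic cells at 778 regions, 75.8% (73.0 to 78.3). The median ratio of mitotic to cycling CPM was 1.58 (interval of the median 1.50 to 1.67), with quartiles of 1.01 and 2.36. It was above 2 in 341 regions (33.2%) and below 1/2 in 21 (2.04%). The width differed as well: the mitotic peaks were wider in 749 of the 1027 regions, and the median width ratio over all 1027 was 1.27. With all tags of the alignment as depth in place of kept tags, the median ratio of 1.58 became 1.22. Total tags differ from kept tags almost only in the mitotic library (23203247 and 17981369), so every ratio fell by the same factor. Per kb of peak, with kept tags as depth, the median ratio was 1.11 (1.08 to 1.13).

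**Figure D3:**
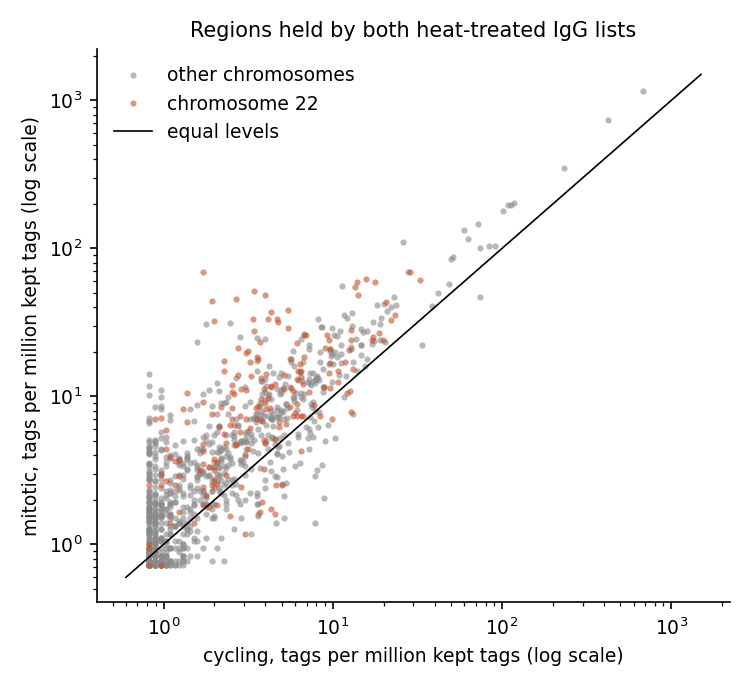
Level of the 1027 regions held by both heat-treated IgG lists, in tags per 1000000 kept tags, cycling on the horizontal and mitotic on the vertical axis, both log scales. Points of chromosome 22 are red and the line marks equal levels; 778 regions lie above the line, and the highest, on chromosome 1, is at 679 and 1161.

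The shared regions with most tags stood out in both states, and several had a fold close to 1. On chromosome 1 at 563972 to 570775, where the nuclear genome holds a copy of mitochondrial DNA, cycling IgG had 9894 tags (679 CPM, 666 to 693) and mitotic IgG 20875 (1161 CPM, 1145 to 1177). The fold there was 1.09 and 1.01. A second such copy, on chromosome 5 at 134258624 to 134264598, had 421 CPM in cycling and 735 in mitotic cells, at folds of 1.13 and 1.08. A further one, on chromosome 5 at 79945383 to 79948743, had 118 and 203 CPM. The ratios of mitotic to cycling CPM at these 3 regions were alike, at 1.71, 1.74 and 1.72. Next to the centromere of chromosome 10, at 42596531 to 42602534, the levels were 234 and 349 CPM (ratio 1.49) at folds of 1.52 and 1.49.

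Density in tags also differed between the lists. The highest density of any peak was 1.48 tags per bp in the cycling list and 3.07 in the mitotic list, both on chromosome 1 at the mitochondrial copy. In non-treated cycling IgG, with the naming of the mitotic lists, the same region had 915 CPM and the highest density was 1.97. Over the 106 shared regions with at least 0.1 tags per bp in either list the median ratio was 1.73 (1.67 to 1.79). A region could enter through the mitotic list alone, which had more kept tags, so the choice itself favours a higher ratio. Over the 921 sparser regions it was 1.50 (1.39 to 1.61), or 1.07 per kb (1.06 to 1.10). The part of duplicates in these ratios was not tested.

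Some of the highest peaks stood in 1 of the 2 heat-treated IgG lists. In cycling cells a peak next to the centromere of chromosome 6 at 58773253 to 58780328 had 5772 tags (396 CPM, 386 to 407) at a fold of 0.93. Another, next to the centromere of chromosome 18 at 18510742 to 18520895, had 4939 tags (339 CPM, 330 to 349) at a fold of 1.21. Neither had a peak in heat-treated mitotic IgG or in non-treated cycling IgG, and they met a peak in 3 and 4 of the 12 lists, their own included. In mitotic cells the cluster of 5S ribosomal RNA genes on chromosome 1, at 228743478 to 228782887, had 7025 tags (391 CPM, 382 to 400) at a fold of 4.73. On the short arm of chromosome 21, at 9825274 to 9832219, mitotic IgG had 4036 tags (224 CPM, 218 to 231) at a fold of 13.2. Neither of these had a cycling peak after heat. Both had IgG peaks in non-treated mitotic cells, with 241 CPM in 22 peaks and 170 CPM in 2 peaks. The 5S cluster had a peak in 7 and the chromosome 21 region in 10 of the 12 lists, of which 6 are of mitotic cells, so lists of cycling cells held peaks at both. A region without a peak is one that did not pass the calling limit, and its tags are not given in the files.

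Of the 5 cycling peaks of highest fold, 4 had a mitotic peak, and these included the 2 highest of the mitotic list. On chromosome 17 at 31148932 to 31150059, mitotic IgG had 457 tags (25.4 CPM, 23.1 to 27.9, fold 23.6). The cycling peak there had 41 tags (2.81 CPM, 2.02 to 3.82, fold 8.06). On chromosome 1 at 156185803 to 156187002 the mitotic peak had 1000 tags (55.6 CPM, 52.2 to 59.2, fold 13.8). The cycling peak had 166 tags (11.4 CPM, 9.73 to 13.3) and the highest fold of its list, 8.75. Near the centromere of chromosome 20 at 26188546 to 26190982, cycling IgG had 26.2 CPM (fold 8.12) and mitotic IgG 110 CPM (fold 8.38). The other one, on chromosome 2 at 87643929 to 87645042, had 2.81 CPM in cycling cells at a fold of 6.54. The mitotic peak over it was wider, 6700 bp, and had 26.5 CPM at a fold of 5. These 4 regions had a peak in all 12 lists of the series. In all, 37 cycling and 49 mitotic IgG peaks met a peak of every other list.

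The remaining peaks of highest fold stood in 1 of the 2 lists. They lay on chromosome 2 at 121926928 to 121927715 in cycling cells (19 tags, 1.30 CPM, fold 6.54). In mitotic cells they lay on chromosome X at 125714611 to 125715467 (54 tags, 3.00 CPM, fold 11.97) and on chromosome 3 at 196191542 to 196192421 (49 tags, 2.73 CPM, fold 10.9). The chromosome 3 peak had no counterpart in the 11 other lists. Such peaks were common: 31483 of the mitotic IgG peaks (76.4%) and 2311 of the cycling ones (52.8%) met no peak of another list.

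The widest peaks marked long stretches of background. The mitotic peak on chromosome 19 at 36758956 to 36801007 was 42052 bp wide and had 3551 tags (197 CPM). In cycling cells 5 peaks with 1647 tags (113 CPM) filled 40725 bp of the same stretch. A second stretch on chromosome 19, at 37759234 to 37794967, was 1 mitotic peak of 132 CPM and 11 cycling peaks with 59.8 CPM. The widest cycling peak, on chromosome 5 at 17517460 to 17530782, had 48.9 CPM (45.4 to 52.7) at a fold of 1.29, and the mitotic peak there had 57.5 CPM. A cycling peak of 10897 bp on chromosome 1 at 2588752 to 2599648 (30.3 CPM) had no mitotic peak. It lay in a window where mitotic cells had 235 peaks.

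The largest excess of mitotic over cycling level came where a short cycling peak fell into a long mitotic one. On chromosome 22 at 19856065 to 19881836, cycling IgG had 25 tags in 816 bp (1.72 CPM, 1.11 to 2.53) and mitotic IgG 1254 tags in 25772 bp (69.7 CPM, 65.9 to 73.7). The ratio of 40.6 became 1.29 per kb. The next regions on the same chromosome, at 20188940 to 20204306 and 19965813 to 19981955, had ratios of 23.1 and 16.9, or 1.54 and 1.42 per kb. A pair on the short arm of chromosome 21, at 9542649 to 9549878 and 9902418 to 9911035, had ratios of 17.2 and 17.2, or 1.31 and 1.82 per kb. All 5 regions were thus nearer to equal in density than in level.

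The opposite case was rarer, and 3 of the 5 regions of lowest ratio lay close together on chromosome 19. At 48415017 to 48419242 cycling IgG had 114 tags in 4226 bp (7.83 CPM, 6.46 to 9.40) and mitotic IgG 25 tags in 874 bp (1.39 CPM, 0.900 to 2.05), a ratio of 0.178. At 48451996 to 48456485 the levels were 8.92 and 2.06 CPM, and at 48425969 to 48428484 they were 5.15 and 1.50. The ratios per kb were 0.859, 0.885 and 0.657. The others were on chromosome 1 at 16912728 to 16915252 (4.599 and 1.39 CPM) and on chromosome 17 at 80405881 to 80406824 (2.27 and 0.779 CPM).

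The peaks were spread unevenly over the chromosomes, and differently in each state. The share of peaks that lay on different chromosomes in the 2 lists (0.5 times the summed absolute differences of the 24 shares) was 12.8%. At a score of at least 100 it was 23.3%, and at a fold of at least 5, with 18 cycling peaks, 59.3%. For non-treated against heat-treated cycling IgG it was 11.5%. For non-treated against heat-treated mitotic IgG it was 30.3%, and between the states without heat 33.3%, where the non-treated mitotic list has 2373 peaks. Intervals of the shares did not overlap on 14 chromosomes, 8 with a higher and 6 with a lower share in mitotic cells. The intervals cover counting error only and take peaks as independent, while peaks were clustered along the chromosomes. With 1 library a group, this count is no test of cell state. The highest ratios of shares, mitotic over cycling, were on chromosome 11 (4.68% against 2.63%, ratio 1.78), chromosome 20 (2.25% against 1.46%, 1.54) and chromosome 17 (4.24% against 2.83%, 1.50). The lowest were on chromosome Y (0.0947% against 1.80%, ratio 0.0525), chromosome X (0.614% against 2.15%, 0.286) and chromosome 22 (2.33% against 8.00%, 0.291). Chromosome Y had 79 cycling and 39 mitotic peaks, and whether these cells carry that chromosome was not measured here. Without heat the ratios on Y, X and 22 were 11.0, 4.50 and 4.34, the opposite order. On chromosomes 11, 20 and 17 they were 1.34, 1.44 and 0.540. Non-treated cycling IgG had 0.387% of its peaks on Y, 0.609% on X and 4.11% on chromosome 22. On each of these chromosomes its share was thus nearer to that of heat-treated mitotic than of heat-treated cycling IgG. Chromosome 1 held the most peaks in both lists, 14.7% of cycling and 15.9% of mitotic peaks.

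**Figure D4:**
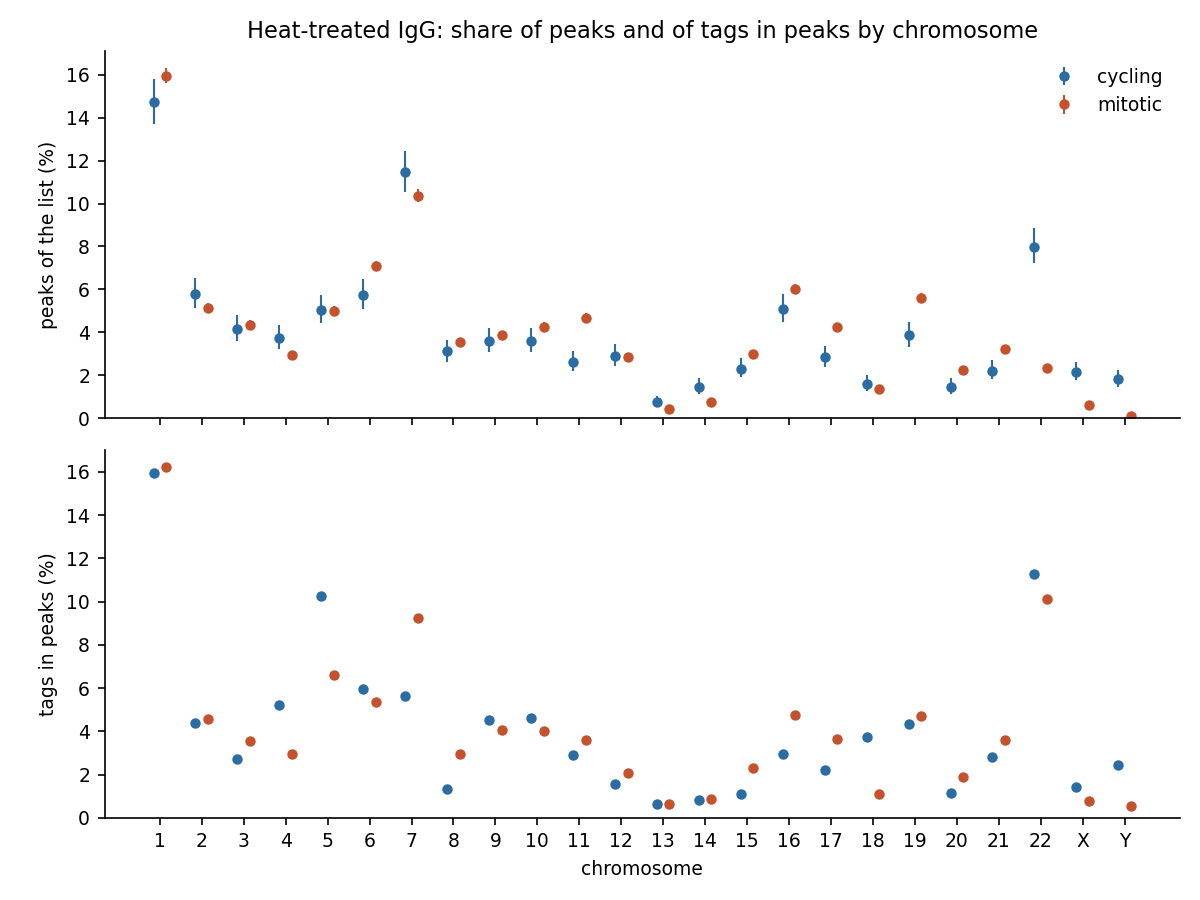
Share of peaks with 95% Wilson intervals (top) and share of tags in peaks (bottom) on each chromosome, in percent, for heat-treated IgG of cycling (blue) and mitotic (red) cells. Chromosome 22 holds 8.00% of cycling and 2.33% of mitotic peaks, but 11.3% and 10.1% of the tags.

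Chromosome 22 shows how far the count of peaks and the tags can part. K562 cells are known for the BCR-ABL1 fusion, carried in several copies together with neighbouring sequence of chromosome 22, and copy number was not measured here. The 4 windows of 1 Mb with most cycling peaks lay side by side on this chromosome, from 18000001 to 22000000, with 38, 44, 81 and 99 peaks. Mitotic IgG had 124, 139, 151 and 145 peaks in the same windows. In the window at 20000001 to 21000000 the cycling peaks covered 148 kb with 307 CPM, and the mitotic peaks 506 kb with 1250 CPM. In the window at 21000001 to 22000000 it was 198 kb with 402 CPM and 486 kb with 1137 CPM.

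Over the segment at 18000001 to 23000000, a range chosen after these values were seen, cycling IgG had 294 peaks covering 11.7% of the bases with 1219 CPM. Mitotic IgG had 645 peaks covering 38.9% with 4611 CPM. Per kb the levels were closer, 2.09 and 2.37 CPM. The segment held 6.72% of cycling and 1.57% of mitotic peaks, but 10.1% and 8.54% of the tags in peaks. The median peak there was 1562.5 bp wide in cycling and 1971 bp in mitotic cells, and the widest 9822 and 25772 bp. In this segment 70.4% of cycling peaks (65.0 to 75.3) had a mitotic peak, against 24.5% elsewhere (23.2 to 25.8). For mitotic peaks the shares were 29.3% (25.9 to 32.9) and 2.27% (2.13 to 2.42). Mitotic peaks covered 38.9% of the segment against 1.15% of the effective genome, and cycling peaks 11.7% against 0.156%. Such coverage by itself favours overlap, and the part of coverage and width in these shares was not tested. The IgG list of non-treated cycling cells covered 18.2% of the segment, and that of non-treated mitotic cells 2.40% from 2066373 kept tags.

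**Figure D5:**
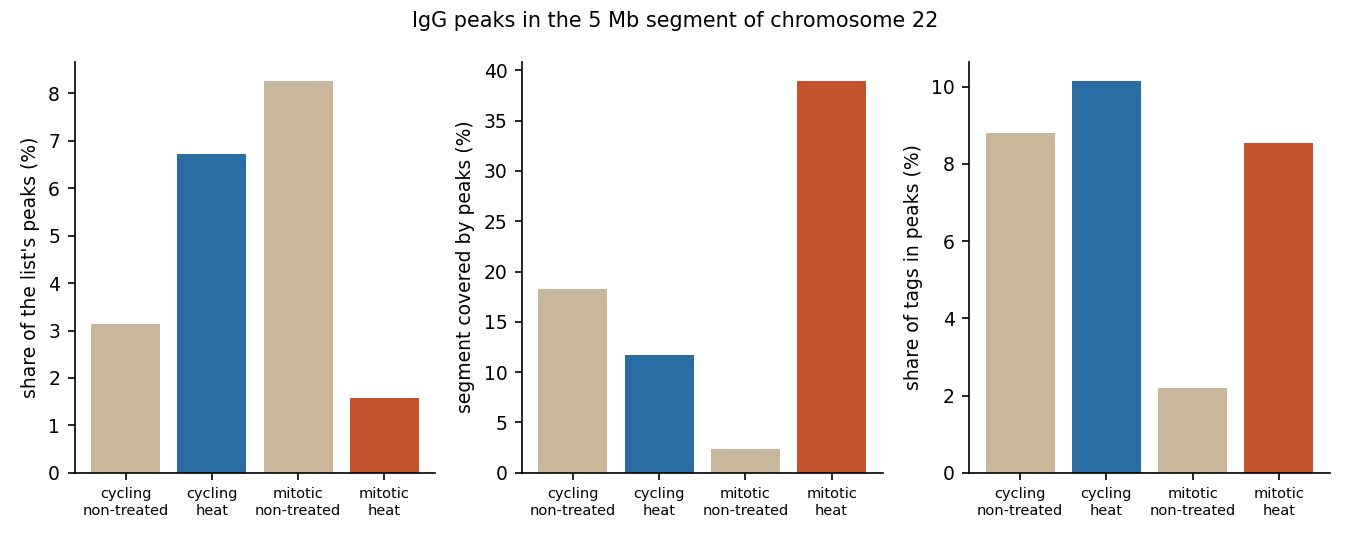
IgG peaks on chromosome 22 from 18 to 23 Mb in the 4 IgG lists (1 library each, no error bars): share of the list's peaks, share of the segment covered and share of the tags in peaks, all in percent. Heat-treated mitotic IgG has the smallest share of peaks (1.57%) and the largest covered share (38.9%), while its share of tags (8.54%) is near that of heat-treated cycling IgG (10.1%).

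The windows with most mitotic peaks lay elsewhere and held far fewer cycling than mitotic peaks. Their 3 to 13 cycling peaks were still above the median of 2 in windows with a cycling peak. For mitotic peaks that median was 6. The 5 of them were 3 adjoining ones near the end of the short arm of chromosome 1, 1 near the end of the long arm of chromosome 21 and 1 near the end of the short arm of chromosome 5. On chromosome 1 at 1000001 to 2000000 there were 268 mitotic peaks and 6 cycling peaks, covering 201 and 3.55 kb with 292 and 6.04 CPM. The next windows, at 2000001 to 3000000 and 3000001 to 4000000, had 235 and 220 mitotic peaks against 13 and 3 in cycling cells. In the former of these, mitotic peaks covered 188 kb with 291 CPM and cycling peaks 35.1 kb with 114 CPM. Chromosome 21 at 46000001 to 47000000 had 218 against 6, and chromosome 5 at 1000001 to 2000000 had 210 against 5. Non-treated cycling IgG had 20 to 40 peaks in these windows, and non-treated mitotic IgG 0 to 27. The median mitotic peak in them was 609 to 634.5 bp wide, so here the tags lay in many narrow peaks, unlike on chromosome 22. Parts of these chromosome ends are known to be rich in genes and in G and C, which was not measured here. The remaining window among those with most cycling peaks lay on chromosome Y at 13000001 to 14000000, with 37 cycling and 17 mitotic peaks.

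Mitotic background reached more windows of the genome, and 50% of its peaks lay in a smaller share of its windows of 1 Mb. A peak was present in 2598 windows of 1 Mb in mitotic and in 1453 in cycling cells, 1397 of them shared. The smallest number of windows that held 50% of the peaks was 273 in mitotic cells, 10.5% of those with a peak (9.39 to 11.7), and 199 in cycling cells, 13.7% (12.02 to 15.56). In windows of 5 Mb these shares were 11.6% (9.31 to 14.4) and 13.2% (10.6 to 16.3), with overlapping intervals. The windows were picked by their number of peaks, so these intervals do not measure the error of the shares. Across the 2734 windows with a peak in any IgG list, Spearman's rho of the number of peaks was 0.54 between heat-treated cycling and mitotic IgG. It was 0.57 between heat-treated and non-treated cycling IgG, and 0.79 between heat-treated mitotic and non-treated cycling IgG. The last pair shares neither cell state nor treatment but has the same naming of alignments. It was 0.25 between heat-treated and non-treated mitotic IgG, where the latter has 2373 peaks. Windows share mappability, base composition and copy number, and the mitotic lists name an input of the same tag number, so these values are given as a description.

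Few of the heat-treated IgG peaks were present in IgG of the same cells without heat. Of the cycling peaks, 861 (19.7%, 18.5 to 20.9) had a peak in non-treated cycling IgG, and of the mitotic peaks 495 (1.2%, 1.10 to 1.31) in non-treated mitotic IgG. As shares of the non-treated lists these were 5.72% and 29.8%. More heat-treated mitotic peaks, 2045 (4.97%), met the non-treated cycling list than met the non-treated mitotic one, which is the shorter list.

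The HSF lists of heat-treated cells met this background to unlike extents. HSF1 drives the induction of chaperone genes on heating, and HSF2 is a related factor. In cycling cells 753 of the 6447 HSF1 peaks (11.7%, 10.9 to 12.5) and 522 of the 4315 HSF2 peaks (12.1%, 11.2 to 13.1) overlapped an IgG peak. In mitotic cells it was 2478 of 4982 HSF1 peaks (49.7%, 48.4 to 51.1) and 2998 of 8270 HSF2 peaks (36.3%, 35.2 to 37.3). This HSF1 library had 7385467 kept tags, an input 5.19 times as deep and a limit of 1 tag per position. A fold below 1 was held by 1488 of the HSF1 and 0 of the HSF2 peaks. The chromosome 22 segment at 18000001 to 23000000 held 19.45% of the HSF1 and 3.49% of the HSF2 peaks. The part of these differences in the shares was not tested. The mitotic IgG list covers 7.34 times as many bases as the cycling one, and its peaks also overlapped 21.0% of the cycling HSF1 peaks and 21.8% of the cycling HSF2 peaks. The cycling IgG peaks overlapped 19.7% of the mitotic HSF1 and 7.16% of the mitotic HSF2 peaks. Of the HSF peaks of non-treated mitotic cells, 45.8% for HSF1 and 28.1% for HSF2 overlapped heat-treated mitotic IgG. That HSF1 list also had a limit of 1 tag per position, and 2197 of its peaks had a fold below 1. As shares of the IgG lists, 17.8% of cycling IgG peaks met HSF1 and 12.7% HSF2, and 4.58% and 7.74% of mitotic ones. With both lists limited to a score of at least 100, 67.95% of mitotic HSF2 and 36.3% of mitotic HSF1 peaks overlapped mitotic IgG, against 12.2% and 8.96% in cycling cells. The limit kept 961 of 8270 mitotic HSF2, 3890 of 4982 mitotic HSF1 and 12178 of the mitotic IgG peaks. In cycling cells it kept 1372 HSF2, 2478 HSF1 and 951 IgG peaks. These shares thus rest on unlike parts of the lists.

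The heat shock genes HSPA1A and HSPA1B on chromosome 6, which encode inducible HSP70, carried IgG peaks of like level in both states. At 31783042 to 31785393 cycling IgG had 70 tags (4.81 CPM, 3.75 to 6.07), and at 31782688 to 31785373 mitotic IgG had 83 tags (4.62 CPM, 3.68 to 5.72). At 31794188 to 31796638 cycling IgG had 79 tags (5.42 CPM, 4.29 to 6.76), and at 31794930 to 31797447 mitotic IgG had 87 tags (4.84 CPM, 3.88 to 5.97). The folds were 2.50 and 2.39 at the former and 3.72 and 3.92 at the latter. The intervals overlapped at both genes. Neither gene had an IgG peak in non-treated cells of either state. The non-treated mitotic library had 2066373 kept tags, so a missing call there says little. Both sites met a peak in 10 of the 12 lists, so HSF lists of non-treated cells had peaks there. A smaller peak between the genes, at 31788871 to 31789730, was called in heat-treated cycling but not mitotic IgG (23 tags, 1.58 CPM). One at 31789938 to 31790530 was called in heat-treated mitotic but not cycling IgG (14 tags, 0.779 CPM). Each of these met a peak in 4 of the 12 lists, its own included.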

How the data were processed

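The members and all lists and tests were chosen with earlier results of these data known. The submitters' processing notes name Bowtie, MACS 1.4 and the hg19 build, while the alignment name of the cycling library carries bwa. Per the file headers, MACS 1.4.1 called each library alone against the input of its cell state, at a p cutoff of 1e-05 and a fragment size of 200 bp, with the smaller library scaled to the larger. The tags are counts in the peak as deposited. The score, 10 times the negative log10 of p, is as deposited, the fold is a ratio over input as deposited, and the FDR is a percent, as deposited by the authors. 

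Chromosomes given by accession were renamed 1 to 22, X and Y. Tags were scaled to 1000000 kept tags (CPM, exact Poisson 95% intervals), overlap was at least 1 bp (Wilson 95% intervals), and shared regions merged overlapping peaks of both lists. All intervals cover counting error only, apart from those of the window shares, which do not measure it. Named sites are, in each list, the 5 peaks of highest CPM, the 5 of highest fold and the 3 widest, the 5 shared regions of highest and of lowest ratio and of highest summed CPM, the 5 windows of 1 Mb with most peaks, the 3 chromosomes of highest and of lowest ratio, and the heat shock genes on chromosome 6. Regions in all 12 lists are given as counts. For 44 pairs of lists the overlap counts were recomputed by bedtools, and 0 differed. In simulated lists with 120 planted overlaps among 400 peaks, 120 were recovered. Versions were bedtools 2.31.1, matplotlib 3.10.9, scipy 1.17.1, pandas 2.3.3, numpy 2.4.6 and Python 3.11.15.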

Additional observations from a re-analysis of the deposited data

Results flagged for a closer look

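Heat went with opposite differences in the IgG lists of the 2 cell states, and the difference between states was not tested, as each group is 1 library. In cycling cells the heat-treated list held 4377 peaks and the non-treated one 15758, a ratio of 0.278. In mitotic cells it was 41184 and 2373, a ratio of 17.4. Per 1000000 kept tags the ratios were 0.281 and 1.99, for covered length 0.381 and 15.1, and for the percent of kept tags in peaks 0.545 (1.20 against 2.21) and 1.68 (5.40 against 3.22). The non-treated mitotic library had 2066373 kept tags, an input 18.6 times as deep, and a limit of 1 tag per position where the other 3 IgG lists allowed 2. Of its 2373 peaks, 2134 had a deposited fold below 1, and the median fold was 0.33. The heat-treated cycling alignment was named unlike the other 3 and had a redundant rate of 0. Non-treated lists were called against input of heat-treated cells. For non-treated cycling IgG that input had 36542527 kept tags, against 34815679 for the heat-treated list. The part of these differences in the ratios was not tested.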

How the results depend on the processing

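No paired analysis was possible because each group is 1 library, and for the same reason no replicate could be left out. Of 93 alternatives, 17 left a value within its 95% interval or unchanged, 71 moved it and 5 reversed it, and the cause was not tested. The ratio of tags in peaks and the chromosome difference had no interval, and that of the median CPM ratio had no width, so any change in these 3 counts as a move. Depth limits what can be called: peaks began at 12 and 13 tags, and a region without a peak is not a region without tags. The 5 alternatives with limits on tag density or without chromosome 22 were chosen after seeing the data.

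The median width ratio, mitotic over cycling, was 0.969 and reversed to 1.01 at a fold of at least 5 (18 and 555 peaks). It reversed to 1.81 and 2.01 with the mitotic list shortened to 4377 peaks by score and by tags. The median CPM ratio of a peak, 0.868, reversed to 1.91 and 2.14 in the shortened lists. Shortening keeps the top mitotic peaks beside all cycling peaks, so the choice itself favours these reversals. Width moved to 0.892 at a score of at least 100, 0.998 at an FDR of at most 5% and 0.984 with peaks less than 1 kb apart merged. The CPM ratio moved to 0.615, 0.935 and 0.732 at the limits on score, FDR and fold, and to 0.673 with total tags as depth. Total tags change almost only the mitotic depth, so they lower each ratio here and below by the same factor.

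The share of cycling peaks with a mitotic peak, 27.6%, was 37.96% at the score limit, 23.8% at the FDR limit and 50.0% at the fold limit. It was 16.1% and 21.0% with equal lengths by score and by tags, 13.3% by reciprocal overlap, 12.6% by summits, 25.9% with merged peaks and 23.9% without chromosome 22. The share of mitotic peaks with a cycling peak, 2.7%, was 1.60% at the FDR limit, 1.62% at the fold limit, 13.3% and 18.3% with equal lengths by score and by tags, 1.41% by reciprocal overlap, 1.34% by summits and 2.22% without chromosome 22.

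The ratio of the shares of kept tags in peaks, 4.49, was 4.24, 7.70 and 25.5 at the limits on score, FDR and fold, 1.61 and 1.85 with equal lengths by score and by tags, 4.61 without X and Y and 3.48 with total tags. The median ratio in shared regions, 1.58, was 1.77, 1.74 and 4.21 at the 3 limits, 2.10 and 1.88 with equal lengths, 1.22 with total tags, 1.11 per kb and 1.32 with 1 peak from each list and reciprocal overlap. It stayed above 1 in all of these, though equal lengths keep the top mitotic peaks, which favours a higher ratio.

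The chromosome difference, 12.8%, was 23.3%, 13.4% and 59.3% at the limits on score, FDR and fold, 9.16% and 13.1% with equal lengths, 10.96% without X and Y, 9.62% without chromosome 22, 15.2% by covered bases and 13.9% by tags. The share of windows that held 50% of cycling peaks, 13.7%, was 17.9%, 15.98% and 43.75% at these limits and 24.5% in windows of 100 kb. For mitotic peaks, 10.5%, it was 26.3% at the fold limit, 8.52% with equal lengths by tags and 15.1% in windows of 100 kb.

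Overlap with non-treated IgG, 19.7% of cycling peaks, was 12.5% by reciprocal overlap, 10.1% by summits and 24.7% at the score limit. For mitotic peaks, 1.2%, it was 0.420%, 0.697% and 3.06%. The share of HSF peaks with an IgG peak was, by reciprocal overlap, by summits and at the score limit, 8.21%, 6.24% and 8.96% for HSF1 in cycling cells. It was 17.1%, 20.4% and 36.3% for HSF1 in mitotic cells, and 22.97%, 17.4% and 67.95% for HSF2 in mitotic cells. For HSF2 in cycling cells it was 8.90% and 6.35% by the former 2.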
